A study of Mus musculus with 20 samples.

Results

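Potassium channel genes were followed in retinas of Nrl knockout mice from 1 to 10 months after birth. The genes are those whose symbol starts with Kcn in the array's gene table, without Kcnv2 and Kcnj10, and whose mean log2 level over all 20 arrays was above 5.6. Of 73 such symbols, 71 were left without those 2, and 60 of the 71 passed the limit, out of 15803 genes on the array with 1 symbol each and 11866 genes above the same limit. The name and the mean level over all arrays set which genes were included. The group itself, and the omission by name of the 2 genes, were decided with earlier results of these data known. Just above the limit were Kcne1 with a mean log2 level of 5.73, Kcnk18 with 5.75 and Kcnn4 with 5.76, and just below it were Kcnj14 with 5.43, Kcnj4 with 5.40 and Kcnmb1 with 5.36. Among the 11 genes below it, no mean of any age exceeded 5.55.

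All mice carried the Nrl-/- genotype on the C57Bl/6J strain, and each age, 1, 2, 4, 6 and 10 months, was represented by 4 mice. Both retinas of a mouse were pooled and measured on 1 exon array, an array with separate probe sets for the exons of a gene. Nrl is the transcription factor gene that rods need to form, and without it the photoreceptors are cone-like. There was no wild-type group, so loss of Nrl, maturation and ageing cannot be told apart. The study's title names a rapid, passing degeneration of this cone-only retina, and the ages were compared to ask which channel genes moved in its course.

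Potassium channels let potassium leave the cell, and in doing so they set the resting potential and end electrical signals. Voltage-gated channels open on depolarisation and calcium-activated channels on a rise in calcium. Inward rectifiers pass current mainly near rest, and two-pore domain channels carry a steady leak. Auxiliary subunits form no pore but change the gating or transport of the channels they bind. In the retina such channels shape the light response of photoreceptors, the signals of inner neurons and the uptake of potassium by Muller glia. By subfamily, the 60 genes comprised 25 voltage-gated channels, 5 calcium-activated channels, 9 inward rectifiers, 8 two-pore domain channels, 12 auxiliary subunits and the regulator Kcnrg.

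Promoter windows of 300 bases, most of them upstream of a RefSeq gene start (GRCm38.p6), were found for 49 of the 60 genes, in 66 windows. The windows below belong to the gene with the largest rise, Kcnk1, to the gene with the largest fall at 4 months, Kcnip2, and to Kcnip4, 1 of 3 Kcnip genes that rose between 1 and 10 months. Kcnip4 has 2 windows, and the one shown holds a motif counted below, while the other, chr5:48599633-48599932, holds none and has 7 CG dinucleotides. CG dinucleotides are in capitals.
Kcnk1, chr8:125994852-125995151, plus strand: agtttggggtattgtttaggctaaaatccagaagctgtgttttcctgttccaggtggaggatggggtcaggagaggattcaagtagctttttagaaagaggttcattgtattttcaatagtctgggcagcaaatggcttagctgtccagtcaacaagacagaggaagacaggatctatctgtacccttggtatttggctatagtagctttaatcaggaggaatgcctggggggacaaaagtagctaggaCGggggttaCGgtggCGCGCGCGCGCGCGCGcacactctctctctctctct
Kcnip2, chr19:45816014-45816313, minus strand: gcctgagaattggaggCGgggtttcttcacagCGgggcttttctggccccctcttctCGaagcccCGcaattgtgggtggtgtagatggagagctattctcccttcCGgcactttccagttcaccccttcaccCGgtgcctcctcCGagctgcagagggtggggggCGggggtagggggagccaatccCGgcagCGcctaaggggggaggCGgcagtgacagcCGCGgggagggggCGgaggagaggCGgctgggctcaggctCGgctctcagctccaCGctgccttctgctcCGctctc
Kcnip4, chr5:49285610-49285909, minus strand: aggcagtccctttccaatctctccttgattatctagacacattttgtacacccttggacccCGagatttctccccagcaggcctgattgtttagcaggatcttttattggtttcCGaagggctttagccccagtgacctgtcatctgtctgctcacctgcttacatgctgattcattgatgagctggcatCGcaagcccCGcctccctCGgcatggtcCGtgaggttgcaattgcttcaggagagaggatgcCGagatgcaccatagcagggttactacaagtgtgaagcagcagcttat
The Kcnip2 window held 18 CG dinucleotides, the Kcnk1 window 10 and the Kcnip4 window 7. The median was 10.0 over the windows of the 60 genes and 7.0 over all 32851 windows, and the median GC content was 60% against 52.7%. Both strands were searched for TAATCC, a core bound by homeodomain factors of photoreceptors, and for AGGTCA, a half-site of nuclear receptors. TAATCC lay in 3 of the 66 windows (4.55%), those of Kcng4, Kcnj9 and Kcnrg, against 7.06% of all windows. AGGTCA lay in 4 (6.06%), those of Kcnf1, Kcnh1, Kcnip4 and Kcnk10, against 16.3% of all. A match describes the letters of a window only.

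All levels below are log2 values per gene, summarised from its probe sets, and all changes are log2 differences between the means of 2 ages with their standard error (n = 4 mice per age). A gene is called risen or fallen where limma's adjusted p, taken over all 11866 genes, was under 0.05. Levels of different genes are not compared, since probes differ in brightness. Each array measured the whole retina, so that fewer cells of a type and less RNA per cell cannot be told apart.

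Several arrays stood apart. In replicate 4 of 4 months and replicate 3 of 10 months the values of all genes were less spread out (SD over genes 1.37 and 1.41) than on the other 18 arrays (1.44 to 1.54). Of the 19 channel genes with a mean level below 7, 16 were at their highest of the 4 mice in the former array and 14 in the latter, against 13 and 12 of the 41 brighter ones. The mean of 2 Y-linked genes was low on all 2-month arrays (4.01 to 4.28) and on mice 2 and 3 of 10 months (4.12 and 4.43), and was 7.33 to 8.27 on the others. Of 10 cone markers, 7 fell and none rose between 1 and 10 months, with array means of 11.83 to 11.96 at 1 month and 11.48 to 11.57 at 10 months. Muller glia markers rose in 9 of 12 at 4 months and 11 of 12 at 10 months, from array means of 10.15 to 10.24 at 1 month to 10.59 to 10.77 at 10 months. Of the 11 pigment epithelium markers on the array, Best1 and Tyr were below 5.6, and 3 of the 9 others rose between 1 and 10 months. Their mean was 8.25, 6.60, 7.68 and 8.07 on the 10-month arrays, with 6.65 to 7.30 on all other arrays. Among markers of inner neurons, 6 of 11 for bipolar cells, 5 of 10 for amacrine cells, 4 of 11 for ganglion cells and 3 of 6 for horizontal cells rose between 1 and 10 months, and 2 of the bipolar markers fell. Array means at 1 and 10 months were 9.98 to 10.04 and 10.21 to 10.24 for bipolar, 9.31 to 9.44 and 9.51 to 9.59 for amacrine, 9.04 to 9.08 and 9.12 to 9.30 for ganglion, and 8.73 to 8.85 and 8.91 to 8.97 for horizontal cells. Microglia markers rose in 8 of 14 at 2 months and 6 of 14 at 4 months, from array means of 6.85 to 6.96 at 1 month to 7.20 to 7.37 at 2 months, and none was called risen at 10 months. Lens markers fell in 3 of 8 at 2, 4 and 10 months each, from array means of 6.63 to 7.21 at 1 month to 5.83 to 6.12 at 2 months. Among all genes 3.28% rose and 5.23% fell at 2 months against 1 month. At 4 months 6.89% rose and 8.23% fell, and at 10 months 20.5% rose and 20.7% fell. The part of these cell types in the changes below was not tested, beyond a pigment epithelium covariate.

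Of the 60 channel genes, 30 (50%) were called in at least 1 of the 8 comparisons of 2 ages, against 49.9% of all genes, and 30 in none. Most calls were rises, and most came at 10 months. At 2 months 3 genes had risen and 2 had fallen since 1 month, 8.33% of the 60 against 8.5% of all genes (3.28% risen and 5.23% fallen). At 4 months 7 had risen and 2 had fallen, 15% against 15.1% (6.89% risen and 8.23% fallen). At 6 months 11 had risen and 2 had fallen, 21.7% against 16.4% (7.9% risen and 8.46% fallen). Between 1 and 10 months 20 rose, 33.3% of the 60 against 20.5% of all genes, and 3 fell, 5% against 20.7%, with 41.2% of all genes called in all. The 4 mice of 1 month and those of 2, 4, 6 and 10 months did not overlap in 11, 16, 15 and 17 of the 60, and in 17.2%, 17.8%, 22.3% and 35.9% of all genes. The F test over the 5 ages called 22 of the 60, 36.7% against 38.4% of all genes. The share of channel genes called by the F test was thus close to that of all genes. Between 1 and 10 months their rises outnumbered their falls, which was not so among all genes.

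The median change of the 60 genes since 1 month was 0.03 at 2 months, 0.10 at 4, 0.09 at 6 and 0.15 at 10 months, where the median over all genes was 0.01, 0.01, 0.01 and 0.04. At 10 months 49 of the 60 genes lay above their 1-month mean (all genes, 55.4%). The mean of the 60 differences was 0.15 at 10 months, and 0.13 without replicate 3. At 4 months it was 0.10, and 0.06 without replicate 4. Without replicate 3 of 10 months 15 genes were called between 1 and 10 months in place of 23. From 2 to 4 months limma called none of the 60 (0.118% of all genes), and 11 of them had an unadjusted p under 0.05. Array weights called 1 there, and the mice of the 2 ages did not overlap in 6 (5.71% of all genes). From 4 to 6 months limma called none (0% of all genes), as did every alternative, and 5 had an unadjusted p under 0.05. The mice did not overlap in 2 (2.54% of all genes). From 6 to 10 months 4 rose and 2 fell, 10% against 20.3% of all genes (8.58% risen and 11.7% fallen), with no overlap in 9 (22.7% of all genes). From 4 to 10 months 8 rose and 6 fell, 23.3% against 21.7% (10% risen and 11.6% fallen), with no overlap in 15 (19.4% of all genes).

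**Figure D1:**
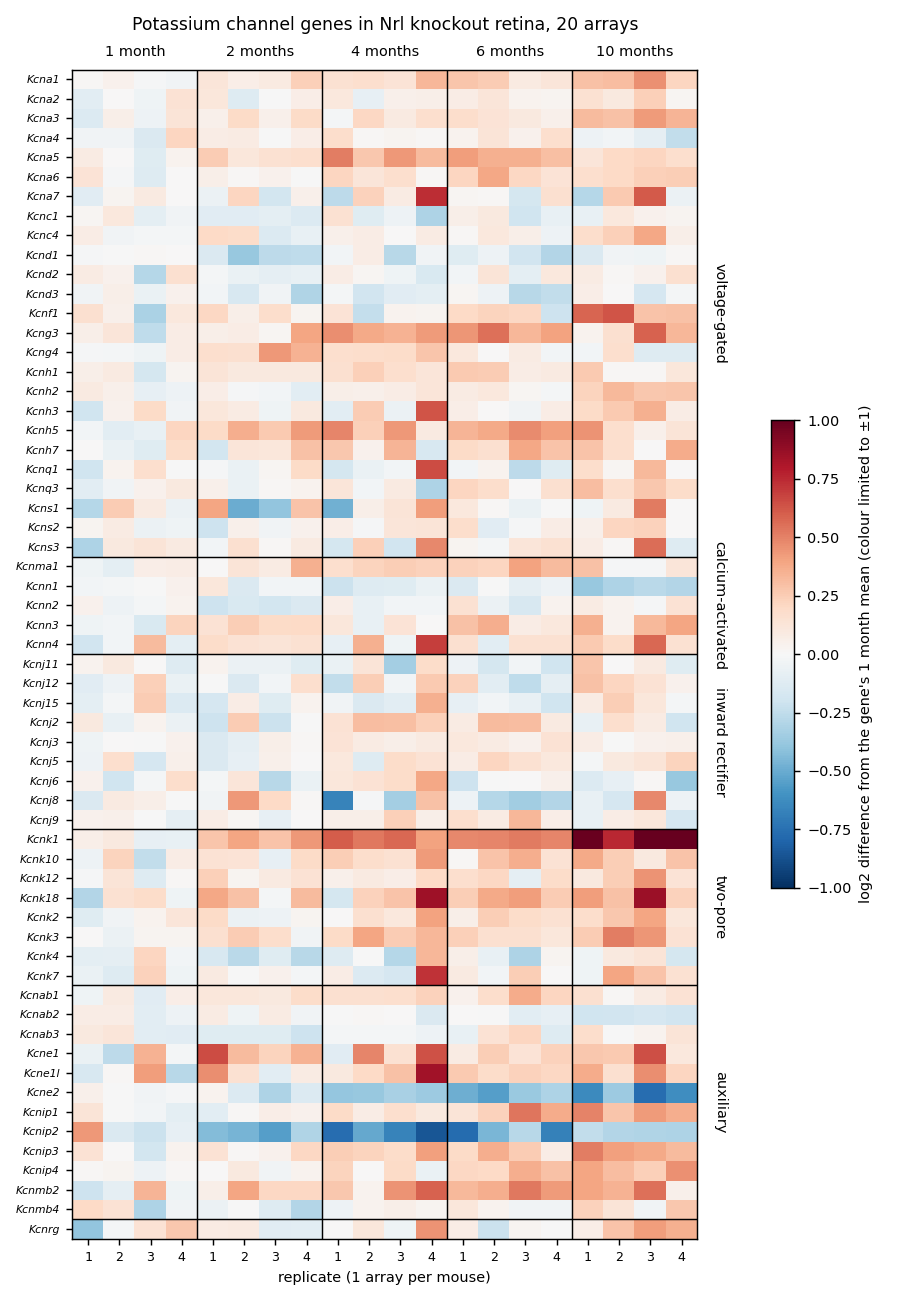
Log2 difference of each of the 60 genes (rows, grouped by subfamily, Kcnrg last) from its own 1-month mean on each of the 20 arrays (columns, 4 mice per age), with the colour limited to differences of 1. Kcnk1 darkens over the ages, Kcne2 falls, Kcnip2 is lowest at 4 months, and many dim genes are red in replicate 4 of 4 months and replicate 3 of 10 months.

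**Figure D2:**
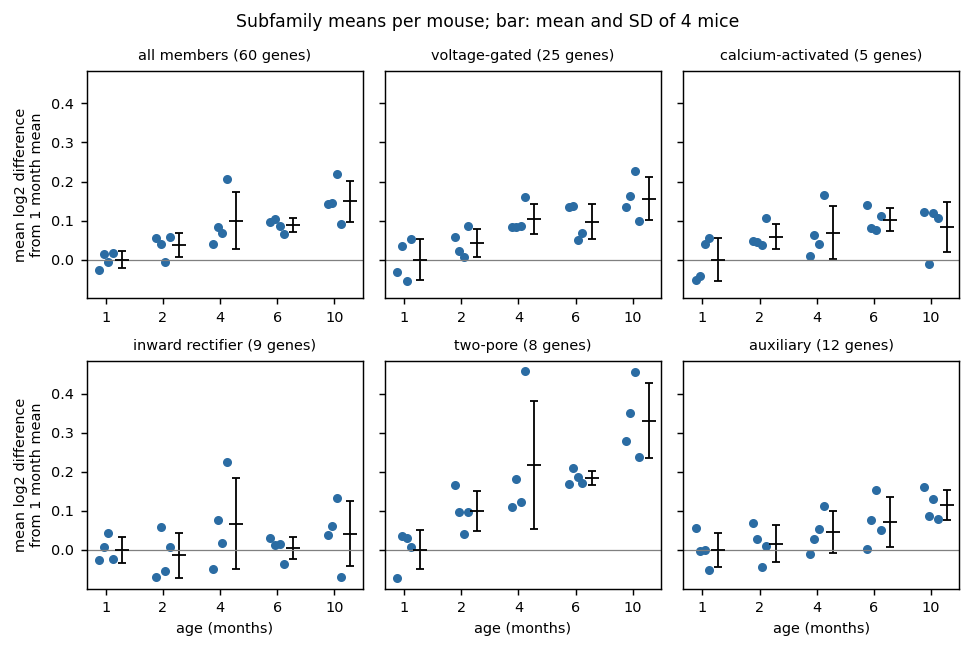
Mean log2 difference from the 1-month mean over the genes of a subfamily, 1 point per mouse, with the mean and SD of the 4 mice as a bar. The two-pore domain mean reaches 0.33 at 10 months while the inward rectifier mean stays within 0.07 of the 1-month mean at every age.

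The two-pore domain genes, which encode leak channels, held the largest rise of all 60. Between 1 and 10 months 6 of the 8 were called risen and none fallen, where 20.5% of all genes rose and 20.7% fell. The other 2, Kcnk4 and Kcnk7, had changes of 0.00 ± 0.11 and 0.20 ± 0.15. The subfamily mean lay 0.33 above 1 month at 10 months and 0.29 without replicate 3, and 0.22 above it at 4 months and 0.14 without replicate 4. Kcnk1, Kcnk2, Kcnk3, Kcnk10, Kcnk12 and Kcnk18 were the 6 that rose. The calls for Kcnk2, Kcnk10, Kcnk12 and Kcnk18, with changes of 0.24, 0.25, 0.23 and 0.45, were lost when certain mice were left out, each on its own. These were mice 1 or 2 of 1 month and 2 or 3 of 10 months for Kcnk2, and mice 1, 3 or 4 of 1 month and 1, 2 or 4 of 10 months for Kcnk10. They were mice 1 or 3 of 1 month and 2 or 3 of 10 months for Kcnk12, and mice 1 or 4 of 1 month and 1 or 3 of 10 months for Kcnk18. Each of these calls was also lost with a covariate for the mean of the Y-linked genes and with one for pigment epithelium. Those of Kcnk10 and Kcnk18 were lost with no filter on dim genes, and those of Kcnk2, Kcnk12 and Kcnk18 with the brightest probe set. The mean level of Kcnk18 at 1 month was 5.49, below the limit of 5.6, and its means at the later ages were 5.73 to 5.94. It was thus included through the ages at which it was higher, and its place among the 6 is not independent of the limit.

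Kcnk1, a channel of weak basal current, rose in steps. Its log2 level was 9.74, 9.77, 9.59 and 9.61 at 1 month, 9.95, 10.07, 9.96 and 10.11 at 2 months, and 10.29, 10.21, 10.25 and 10.08 at 4 months. It was 10.16, 10.16, 10.19 and 10.17 at 6 months and 10.67, 10.43, 10.68 and 10.68 at 10 months. Every mouse of 2 months and later exceeded every mouse of 1 month, and every mouse of 10 months exceeded all younger ones. The change since 1 month was 0.35 ± 0.06 at 2 months (adjusted p = 0.00246), 0.53 ± 0.06 at 4 months (adjusted p = 2.91e-05) and 0.94 ± 0.06 at 10 months (adjusted p = 8.23e-09), a 1.91-fold rise. From 4 to 10 months it rose by 0.41 ± 0.06 (adjusted p = 0.000239), with no change called between 4 and 6 months (-0.04 ± 0.06, adjusted p = 0.934). All 6 probe sets of the gene were higher at 10 months, by 0.66 to 1.06. The rise from 1 to 4, 6 and 10 months and from 4 and 6 to 10 months was called under every alternative that set no minimum change, a pigment epithelium covariate included (0.88 between 1 and 10 months). The call at 2 months was lost with the brightest probe set and with a Y-linked covariate, that is, with the mean of the Y-linked genes on each array in the fit. Over all alternatives the change at 2 months was 0.30 to 0.50. Since all 2-month arrays were low in Y-linked genes, that covariate cannot separate age from this difference.

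Kcnk3, an acid-sensitive leak channel, was at 8.76, 8.69, 8.78 and 8.78 at 1 month and 8.94, 9.15, 9.01 and 9.08 at 4 months. Those groups did not overlap, and the gene rose by 0.29 ± 0.08 (adjusted p = 0.0125). At 10 months it was at 9.01, 9.26, 9.19 and 8.90, again above all 1-month mice, a rise of 0.34 ± 0.08 (adjusted p = 0.00137) that was lost with a Y-linked covariate and with only the 10-month arrays high in Y-linked genes. The call at 4 months was lost with the brightest probe set. Kcnk2, a mechanically gated leak channel, was at 6.26 to 6.50 at 1 month and 6.49 to 6.77 at 10 months.

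Voltage-gated genes made up most of the other rises. Of the 25, 4 rose between 1 and 4 months and 9 between 1 and 10 months, and none fell in either comparison. Among all genes 6.89% rose and 8.23% fell in the former, and 20.5% rose and 20.7% fell in the latter. The F test called 11 of the 25, or 44%, against 38.4% of all genes. Their mean lay 0.16 above 1 month at 10 months, with single mice from 0.10 to 0.23. Several distinct time courses were present among them.

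Kcna5, a delayed rectifier of the Shaker family, was higher in the middle ages. It was at 10.59, 10.51, 10.38 and 10.54 at 1 month and at 11.02, 10.77, 10.94 and 10.82 at 4 months. The 6-month values were 10.92, 10.86, 10.86 and 10.81, and those of 10 months 10.63, 10.70, 10.72 and 10.67. The 10-month mice lay above every 1-month mouse and below every 4-month and 6-month mouse. The gene rose by 0.38 ± 0.06 from 1 to 4 months (adjusted p = 0.000243) and fell by 0.21 from 4 to 10 months (SE 0.06, adjusted p = 0.0163). The early rise was called under every alternative that set no minimum change, and the later fall was lost without replicate 1 of 4 months, with the arrays of both ages alone, with the brightest probe set, and with a pigment epithelium covariate.

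Kcnh5, of the ether-a-go-go family, was at 9.87, 9.79, 9.83 and 10.11 at 1 month and at 10.24, 10.27, 10.37 and 10.31 at 6 months. All 6-month mice exceeded all 1-month mice, and the rise was 0.40 ± 0.09 (adjusted p = 0.00718). At 4 months its values were 10.39, 10.14, 10.33 and 9.99, which overlap those of 1 month, with a rise of 0.31 ± 0.09 (adjusted p = 0.0328) that was lost without any of mice 1, 2 and 3 of 1 month or mice 1 and 3 of 4 months. All 19 of its probe sets were higher at 4 months than at 1 month, by 0.05 to 0.73. At 10 months the change was 0.20 ± 0.09 (adjusted p = 0.105).

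Kcng3 and Kcng4 encode silent subunits, which conduct only when joined to other channels. Kcng3 was at 6.04, 6.10, 5.72 and 6.05 at 1 month and at 6.44, 6.36, 6.33 and 6.40 at 4 months. It rose by 0.40 ± 0.11 (adjusted p = 0.0149) and all 6 probe sets were higher, but the call was lost without replicate 3 of 1 month, its lowest mouse, with the brightest probe set and with quantile normalization. Kcng4 was at 8.90, 8.89, 8.86 and 8.98 at 1 month, 9.08, 9.07, 9.34 and 9.26 at 2 months, and 9.07, 9.09, 9.09 and 9.18 at 4 months. It fell back to 8.88, 9.07, 8.78 and 8.78 at 10 months. The rise at 2 months was 0.28 ± 0.07 (adjusted p = 0.0175) and the change from 4 to 10 months was -0.23 ± 0.07 (adjusted p = 0.0232). The rise was lost without replicate 3 of 1 month or mice 3 or 4 of 2 months, the fall without replicate 4 of 4 months or mice 3 or 4 of 10 months. The rise was also lost with a Y-linked covariate and with the brightest probe set, which changed by 0.06. The fall was also lost with the brightest probe set, array weights, the arrays of both ages alone and a pigment epithelium covariate.

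Kcnh2, Kcna3 and Kcnf1 were called risen at 10 months against 1, 4 and 6 months, and at no earlier age. Each call against 6 months was lost with the brightest probe set. Those of Kcna3 and Kcnf1 were also lost with a Y-linked or a pigment epithelium covariate. Leaving out replicate 4 of 6 months or replicate 3 of 10 months ended that of Kcna3. Leaving out any 6-month array, or mice 1 or 2 of 10 months, ended that of Kcnf1. Kcnh2 was at 9.83, 9.78, 9.65 and 9.69 at 1 month, 9.80, 9.79, 9.81 and 9.86 at 4 months, and 9.96, 10.06, 10.00 and 10.02 at 10 months. The 10-month mice exceeded all others of these ages. It rose by 0.27 ± 0.05 from 1 to 10 months (adjusted p = 0.000291), with all 19 probe sets higher, and this was called under every alternative that set no minimum change. From 4 to 10 months it rose by 0.19 ± 0.05 (adjusted p = 0.00984), a call lost with the Y-linked or a pigment epithelium covariate. The arrays of both ages alone, and only the 10-month arrays high in Y-linked genes, also ended it.

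Kcna3, another Shaker channel, was at 8.64, 8.84, 8.73 and 8.91 at 1 month, 8.76, 8.99, 8.87 and 8.94 at 4 months, and 9.10, 9.07, 9.20 and 9.12 at 10 months. It rose by 0.35 ± 0.06 from 1 to 10 months (adjusted p = 0.000263) and by 0.23 ± 0.06 from 4 to 10 months (adjusted p = 0.0128). With the brightest probe set the change between 1 and 10 months was 0.10 and not called. The rise from 4 months was lost in 5 settings, the brightest probe set, the arrays of both ages alone, a Y-linked or a pigment epithelium covariate, and only the 10-month arrays high in Y-linked genes. Kcnf1, a silent subunit, rose by 0.46 ± 0.12 from 4 to 10 months (adjusted p = 0.00934), from 6.88, 6.50, 6.77 and 6.77 to 7.32, 7.37, 7.02 and 7.03. All 4 of its 10-month mice exceeded the 4-month mice. Its brightest probe set changed by -0.04 in that comparison, in which the other 4 were higher by 0.24 to 0.68. The call of Kcnf1 there was also lost with a pigment epithelium covariate. Between 1 and 10 months its call was lost with the brightest probe set and with a Y-linked covariate.

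Kcna1, a channel of axons and terminals, was at 8.44, 8.47, 8.42 and 8.40 at 1 month and at 8.73, 8.74, 8.89 and 8.65 at 10 months, with no overlap. The rise was 0.32 ± 0.06 (adjusted p = 0.000474) and was called under every alternative that set no minimum change. Its rises at 4 and 6 months, 0.20 and 0.19, had adjusted p = 0.0378 and adjusted p = 0.0493. Leaving out any array of 1 month ended both, as did mice 2 or 4 of 4 months and 1, 2 or 4 of 6 months. Kcna6, Kcnc4, Kcnq3 and Kcng3 rose by 0.21, 0.22, 0.23 and 0.28 between 1 and 10 months, and Kcnq3, a subunit of the M-current, also by 0.26 ± 0.08 from 4 to 10 months (adjusted p = 0.0225). Among these, the calls between 1 and 10 months were lost without mice 2, 3 or 4 of 1 month or 2 or 3 of 10 months for Kcnc4, and without mice 1 or 2 of 1 month or 1 or 3 of 10 months for Kcnq3. The call of Kcna6 was lost with a Y-linked covariate and with only the 10-month arrays high in Y-linked genes, as were those of the other 3. That of Kcng3 was also lost without mice 1, 3 or 4 of 1 month or 3 or 4 of 10 months, and the later rise of Kcnq3 was lost without replicate 4 of 4 months or 1 or 3 of 10 months. The mean or the brightest of the probe sets, array weights, the arrays of both ages alone, a pigment epithelium covariate, and only the 10-month arrays high in Y-linked genes, also ended the later rise of Kcnq3.

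Kcnd1, an A-type channel, was the only voltage-gated gene called fallen at 2 months, with values of 7.38, 7.39, 7.41 and 7.39 at 1 month and 7.25, 7.01, 7.13 and 7.14 at 2 months (-0.26 ± 0.07, adjusted p = 0.0253). Leaving out mice 1, 2 or 3 of 1 month or 2, 3 or 4 of 2 months ended that call, and so did a Y-linked covariate, the mean and the brightest of the probe sets.

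The remaining voltage-gated genes of the fixed set were not called in any comparison. Kcna2, a partner of Kcna1 in axons, ranged over the 20 arrays from 9.41 to 9.78, and its change between 1 and 10 months was 0.13 ± 0.07. For Kcnc1, a fast delayed rectifier, that change was 0.03 ± 0.08. For the A-type channels Kcnd2 and Kcnd3 it was 0.07 ± 0.08 and -0.03 ± 0.08, and for Kcnh1 0.10 ± 0.07. The widest spread among mice was in dim genes such as Kcna7, at 5.44, 5.93, 5.78 and 6.44 at 4 months and 5.42, 5.96, 6.32 and 5.65 at 10 months, where the less spread arrays gave the highest values.

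**Figure D3:**
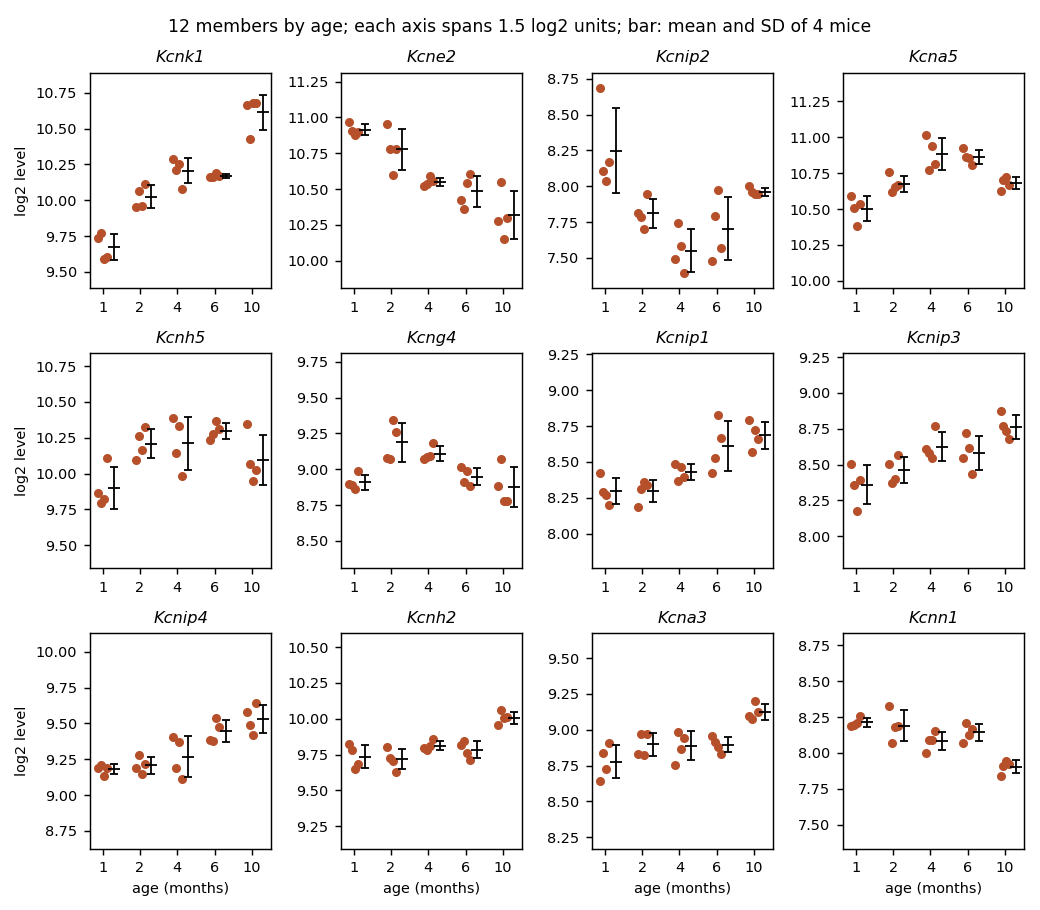
Log2 level of 12 genes by age, 1 point per mouse with the mean and SD of the 4 mice as a bar, each panel on its own scale. Kcnk1 rises from 9.59 to 9.77 at 1 month to 10.43 to 10.68 at 10 months, Kcne2 falls, Kcna5 peaks at 4 and 6 months, and Kcnh2, Kcna3 and Kcnn1 shift mainly at 10 months.

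Among the 5 calcium-activated genes, Kcnn1 fell and Kcnma1 and Kcnn3 rose, each at some age. Kcnn1, a small-conductance channel, was at 8.19, 8.20, 8.21 and 8.26 at 1 month, 8.0, 8.09, 8.09 and 8.15 at 4 months, and 7.84, 7.91, 7.94 and 7.92 at 10 months. The 10-month mice were below all the others of these ages, and the fall from 1 to 10 months was called under every alternative that set no minimum change (-0.31 ± 0.05, adjusted p = 0.000148). From 6 to 10 months the change was -0.24 ± 0.05 (adjusted p = 0.00363), which was not called with the mean or the brightest of the probe sets. Of its 16 probe sets 13 were lower at 10 months than at 1 month.

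Kcnma1, the large-conductance channel, was at 10.48, 10.43, 10.59 and 10.60 at 1 month and 10.76, 10.74, 10.93 and 10.84 at 6 months, with no overlap (0.29 ± 0.08, adjusted p = 0.0135, lost without replicate 3 of 6 months and with the brightest probe set). At 10 months it was at 10.82, 10.51, 10.51 and 10.65, which overlap the 1-month values. Kcnn3 rose by 0.28 ± 0.09 from 1 to 10 months (adjusted p = 0.0178), a call lost without replicate 3 of 1 month or mice 1 or 4 of 10 months. That call was also lost with the mean or the brightest of the probe sets, the latter changing by 0.03. Quantile normalization, array weights, the arrays of both ages alone and a pigment epithelium covariate ended it too. Kcnn2 passed the F test (adjusted p = 0.0299) but no comparison of 2 ages. Its 2-month mice, at 8.08, 8.13, 8.09 and 8.13, lay below all 1-month mice (8.23 to 8.32). Its 13 probe sets disagreed in sign. The brightest alone rose by 0.47 from 1 to 4 months (adjusted p = 0.0219), while the gene's value changed by -0.02 ± 0.06.

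Among the inward rectifiers, none of the 9 was called against 1 month at any age and none by the F test. Among all genes 41.2% were called between 1 and 10 months and 38.4% by the F test. Between 4 and 10 months 1 inward rectifier fell, where 11.6% of all genes did. That gene, Kcnj6, a G protein-gated channel, was at 6.91, 6.95, 6.98 and 7.18 at 4 months and 6.66, 6.71, 6.81 and 6.42 at 10 months, with no overlap (-0.36 ± 0.10, adjusted p = 0.015). The call was lost without replicate 4 of 10 months, with the mean or the brightest of the probe sets, with the arrays of both ages alone and with a pigment epithelium covariate. The other G protein-gated members, Kcnj3, Kcnj5 and Kcnj9, changed by 0.04 ± 0.05, 0.11 ± 0.08 and -0.02 ± 0.07 between 1 and 10 months. Kcnj2, a strong rectifier, was at 7.32, 7.15, 7.26 and 7.17 at 1 month and 7.37, 7.54, 7.53 and 7.47 at 4 months, a change of 0.25 ± 0.10 (adjusted p = 0.0954). Kcnj8, a pore subunit of ATP-sensitive channels in vessel walls, changed by -0.18 ± 0.17 from 1 to 4 months. In that comparison 6 of 13 endothelium and pericyte markers fell, where 8.23% of all genes did, and 1 rose. Among those that fell was Abcc9, the partner subunit of Kcnj8 (-0.33 ± 0.08, adjusted p = 0.00787), and the marker that rose was Flt1, a receptor of endothelial growth factor (0.57 ± 0.08, adjusted p = 0.000166).

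The 12 auxiliary subunits held the largest falls since 1 month, those of Kcnip2 and Kcne2, and the rises of 3 Kcnip genes. Between 1 and 10 months 4 rose and 2 fell, and from 4 to 10 months 3 rose and 2 fell. Among all genes 20.5% rose and 20.7% fell in the former comparison, and 10% rose and 11.6% fell in the latter. Kcne2, a single-span subunit that binds several pore-forming channels, fell steadily. It was at 10.97, 10.91, 10.88 and 10.90 at 1 month, 10.95, 10.78, 10.60 and 10.78 at 2 months, and 10.52, 10.54, 10.59 and 10.55 at 4 months. At 6 months it was at 10.43, 10.36, 10.55 and 10.60, and at 10 months at 10.28, 10.55, 10.15 and 10.30. From 4 months on every mouse was below every 1-month mouse. The change since 1 month was -0.36 ± 0.08 at 4 months (adjusted p = 0.00426) and -0.59 ± 0.08 at 10 months (adjusted p = 8.87e-06), and both were called under every alternative that set no minimum change. All 4 probe sets were lower at 10 months. The step from 4 to 10 months, -0.23 ± 0.08 (adjusted p = 0.0419), was lost when any array of the 2 ages but replicate 2 of 10 months was left out, and came to -0.10 with a pigment epithelium covariate.

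The Kcnip genes encode calcium-binding proteins that attach to A-type channels of the Kcnd family. Kcnip1, Kcnip3 and Kcnip4 rose, on different courses. Kcnip1 was at 8.42, 8.29, 8.27 and 8.20 at 1 month, 8.49, 8.37, 8.46 and 8.39 at 4 months, 8.42, 8.53, 8.83 and 8.66 at 6 months, and 8.79, 8.57, 8.72 and 8.66 at 10 months. It rose by 0.32 ± 0.08 from 1 to 6 months (adjusted p = 0.00743) and by 0.39 ± 0.08 from 1 to 10 months (adjusted p = 0.000419). Kcnip3, also known as a calcium-dependent repressor of transcription, was at 8.50, 8.36, 8.18 and 8.39 at 1 month, 8.61, 8.58, 8.54 and 8.77 at 4 months, and 8.87, 8.77, 8.74 and 8.68 at 10 months. Its rise was called already at 4 months (0.27 ± 0.08, adjusted p = 0.0227), a call lost without replicate 3 of 1 month, replicate 4 of 4 months or with the arrays of both ages alone. It was 0.40 ± 0.08 at 10 months (adjusted p = 0.000305), and no change was called from 4 to 10 months (0.14 ± 0.08, adjusted p = 0.218). Kcnip4, whose window is shown above, was at 9.19, 9.21, 9.13 and 9.19 at 1 month, 9.39, 9.38, 9.54 and 9.48 at 6 months, and 9.58, 9.49, 9.42 and 9.64 at 10 months. It rose by 0.27 ± 0.07 from 1 to 6 months (adjusted p = 0.00936) and by 0.35 ± 0.07 from 1 to 10 months (adjusted p = 0.000305). The 6-month calls of Kcnip1 and Kcnip4 were lost with the mean or the brightest of the probe sets, and neither gene was called from 6 to 10 months. In all 3 genes the 10-month mice exceeded the 1-month mice, and the call between those ages was kept under every alternative that set no minimum change.

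Of the probe sets, 11 of 12 in Kcnip1, all 9 in Kcnip3 and 9 of 11 in Kcnip4 were higher at 10 months than at 1 month. From 4 to 10 months Kcnip1 rose by 0.26 ± 0.08 (adjusted p = 0.0199) and Kcnip4 by 0.26 ± 0.07 (adjusted p = 0.00757). The former call was lost without replicate 2 of 4 months or replicate 1 of 10 months. With a pigment epithelium covariate their values were 0.26 (adjusted p = 0.111) and 0.25 (adjusted p = 0.0768). None of the A-type channel genes Kcnd1, Kcnd2 and Kcnd3 was called at 10 months.

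Kcnip2 took another course. It was at 8.68, 8.11, 8.04 and 8.17 at 1 month, 7.81, 7.79, 7.70 and 7.95 at 2 months, 7.49, 7.74, 7.58 and 7.39 at 4 months, and 7.48, 7.80, 7.97 and 7.57 at 6 months. At 10 months it was at 8.0, 7.96, 7.95 and 7.94, below every 1-month mouse and above every 4-month mouse. The change was -0.44 ± 0.12 at 2 months (adjusted p = 0.0305), -0.70 ± 0.12 at 4 months (adjusted p = 0.000774) and -0.54 ± 0.12 at 6 months (adjusted p = 0.00465). From 4 to 10 months it rose by 0.41 ± 0.12 (adjusted p = 0.021), a call lost without replicate 4 of 4 months and with the brightest probe set. A Y-linked or a pigment epithelium covariate, and only the 10-month arrays high in Y-linked genes, also ended that call. The change between 1 and 10 months was -0.29 ± 0.12 (adjusted p = 0.0662). The call at 2 months was lost without replicate 1 of 1 month, its highest mouse, or any of mice 1, 2 and 3 of 2 months. It was also lost with the mean or the brightest of the probe sets, no filter on dim genes, the arrays of both ages alone, a replicate block and a Y-linked covariate.

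Its probe sets moved in opposite directions. At 4 months 8 of the 11 were lower than at 1 month, with differences of -1.06 to -0.27, and 3 were higher. The brightest, with a mean level of 10.54, was higher by 0.43, 0.31, 0.38 and 0.53 at 2, 4, 6 and 10 months. None of these changes was called when that probe set stood for the gene (adjusted p = 0.329, 0.429 and 0.330 for the first 3). Another with a mean level of 8.20 was higher by 0.62 at 4 months. The third that was higher had a mean level of 4.13, under the limit for genes. The fall of Kcnip2 thus holds for 8 of its probe sets and not for the gene as a whole. Which transcripts the probe sets measure was not tested.

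**Figure D4:**
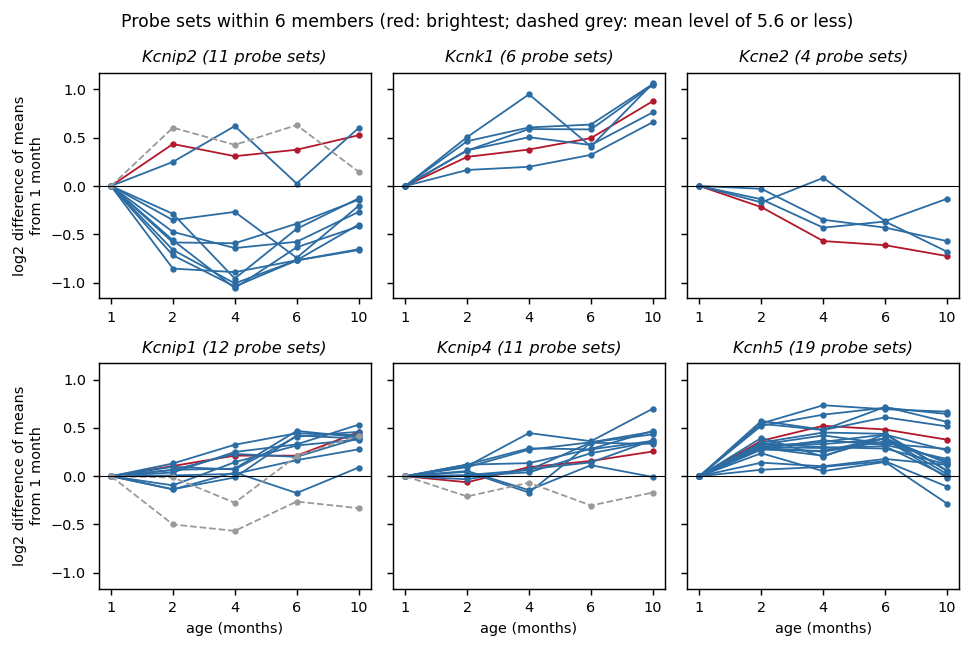
Log2 difference of the mean of each probe set from its own 1-month mean by age, for 6 genes, with the brightest probe set in red and probe sets with a mean level of 5.6 or less as dashed grey lines. All 6 lines of Kcnk1 rise, while the 11 of Kcnip2 part into 8 lower and 3 higher at 4 months.

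The remaining auxiliary genes changed less. Kcnab2, a cytoplasmic beta subunit of Shaker channels, was at 11.65, 11.65, 11.47 and 11.53 at 1 month and 11.38, 11.39, 11.41 and 11.38 at 10 months, with no overlap (-0.19 ± 0.05, adjusted p = 0.00879, lost with a Y-linked covariate and with the brightest probe set). Kcnab1 rose by 0.20 ± 0.06 at 6 months (adjusted p = 0.0353), with values that overlap those of 1 month. Kcnmb2, a beta subunit of the large-conductance channel, rose by 0.41 ± 0.13 at 6 months (adjusted p = 0.0325) and 0.33 ± 0.13 at 10 months (adjusted p = 0.041), again with overlap. The call of Kcnab1 was lost without mice 1 or 3 of 1 month or 2, 3 or 4 of 6 months. The brightest probe set, no filter on dim genes, quantile normalization, array weights, the arrays of both ages alone and a replicate block also ended it. Both calls of Kcnmb2 were lost without mice 1, 2 or 4 of 1 month, the former also without 2, 3 or 4 of 6 months, and the latter without 1, 2 or 3 of 10 months or with a covariate for the spread of an array. Both were lost with the brightest probe set and with no filter on dim genes. Quantile normalization, the arrays of both ages alone, a Y-linked or a pigment epithelium covariate, and only the 10-month arrays high in Y-linked genes, also ended the latter. Kcnab3, Kcne1, Kcne1l and Kcnmb4 were not called in any comparison.

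**Figure D5:**
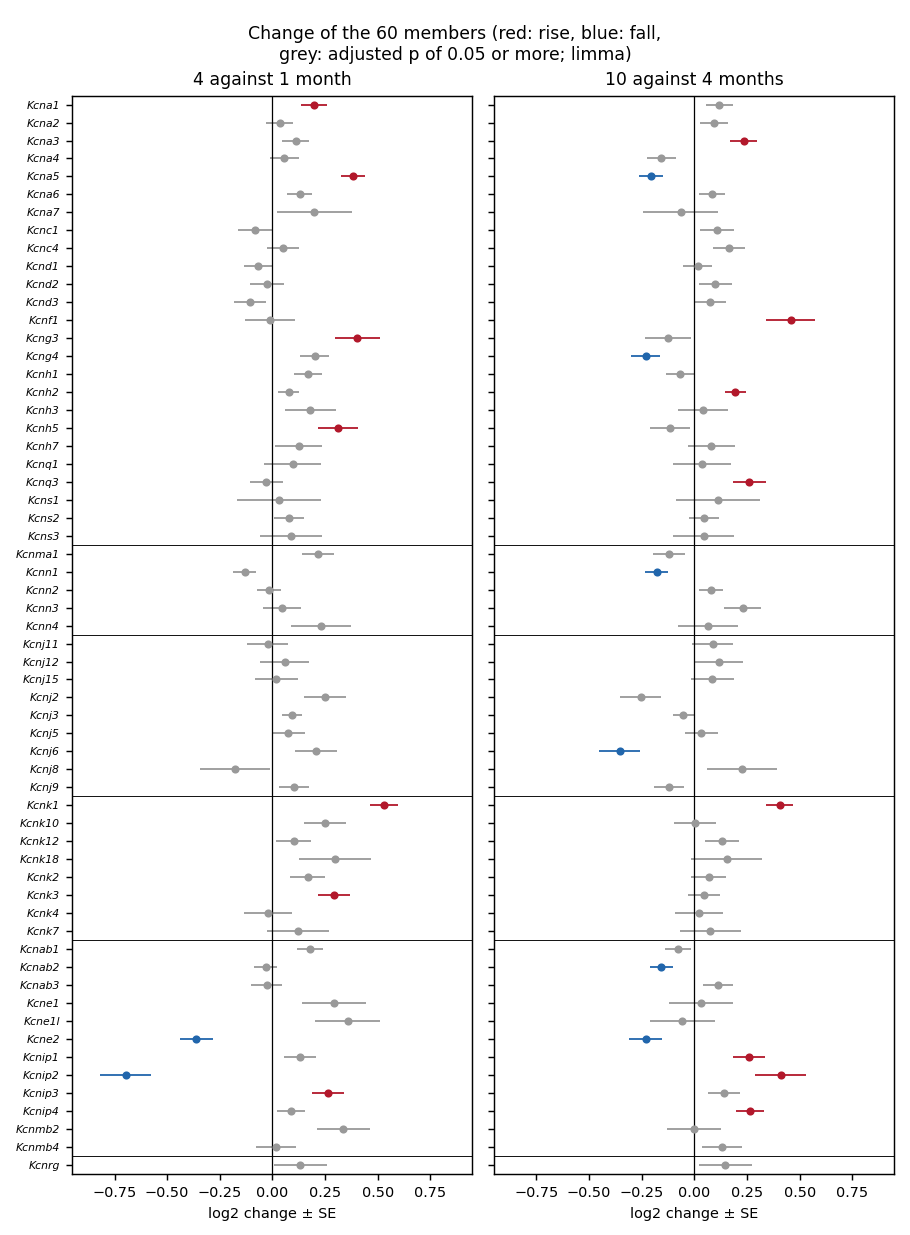
Log2 change with its standard error for the 60 genes, in rows grouped by subfamily, from 1 to 4 months (left) and from 4 to 10 months (right), with limma's called rises in red, called falls in blue and all others in grey. From 1 to 4 months 7 genes are red and 2 blue, and from 4 to 10 months 8 are red and 6 blue.

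Many calls changed with the fit. Of 70 calls of named genes the brightest probe set ended 46, a Y-linked covariate 28, a pigment epithelium covariate 28 and the arrays of both ages alone 25. In place of the 14 genes called between 4 and 10 months, 4 were called when only the 8 arrays of the ages compared were fitted, 9 genes were called without replicate 4 of 4 months or without replicate 1 of 10 months, and 1, Kcnk1, with a pigment epithelium covariate. Between 1 and 10 months that covariate gave 13 calls in place of 23, a Y-linked covariate 10, and the use of only the 10-month arrays that were high in Y-linked genes 13. Among the 5 genes called at 2 months, none was called with a Y-linked covariate, and since all 2-month arrays were low in Y-linked genes, age and this difference cannot be told apart within that comparison. Leaving out mice 1 or 3 of 1 month, or mice 2 or 4 of 2 months, left 2 calls at 2 months, and leaving out replicate 2 of 1 month or replicate 3 of 2 months left 3 and 1.

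Related ion transport genes were counted in the same fit, from lists drawn up beside the channel genes. Of the HCN channels, pacemaker channels that pass sodium and potassium, 1 of 4, Hcn2, was among the genes tested, and it rose between 1 and 10 months by 0.26 ± 0.07 (adjusted p = 0.00617). Of 15 other partners of potassium channels, 1 rose and 2 fell at 4 months, where 6.89% of all genes rose and 8.23% fell. At 10 months 3 rose and 2 fell, where 20.5% of all genes rose and 20.7% fell. Abcc9 and Dmd, the dystrophin gene, fell by 0.44 and 0.39 between 1 and 10 months. Cntnap2, which anchors Kcna channels along axons, rose by 0.41 ± 0.07 (adjusted p = 0.000118).

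Of 10 genes of the sodium pump and of potassium transporters, 3 rose and 1 fell at 4 months, and 4 rose and none fell at 10 months. The largest change among them was in Fxyd6, a regulator of the pump, which rose by 0.39 ± 0.08 between 1 and 10 months (adjusted p = 0.000563). Of 6 voltage-gated sodium channel genes 3 rose and none fell at 10 months, led by Scn4a (0.36 ± 0.11, adjusted p = 0.0116). Of 16 voltage-gated calcium channel genes 3 rose and 3 fell. Cacna1f, the channel of photoreceptor terminals, fell by 0.49 (SE 0.08, adjusted p = 5.67e-05) and Cacnb4 rose by 0.43 ± 0.07 (adjusted p = 0.000111). The shares called between 1 and 10 months over all genes were 20.5% for rises and 20.7% for falls. Between 1 and 4 months they were 6.89% and 8.23%.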

How the data were processed

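Exon arrays were hybridised with RNA from 20 retina samples, 4 mice at each of 5 ages. Per the labels' protocols, ribosomal RNA was removed before sense-strand cDNA was made and labelled. The authors deposited log2 values of 194293 probe sets on the 20 arrays, made with RMA per the submitters' processing notes. Its version and the genome build of the array were not given in the sources used here. RMA brings the arrays to 1 distribution, which would hide a shift common to most genes, and the number of arrays limits the precision.

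Probe sets with 1 gene symbol (179496) took their name from the platform's gene table, with symbols updated from RefSeq's GRCm38.p6 gene table, and 1328 with several symbols and 13469 unnamed ones were left out. Median polish made 1 value per gene and array, from 9 probe sets in the median gene. All 11866 genes with a mean above 5.6 were fitted in R 4.3.3 with lmFit and eBayes of limma 3.58.1 (1 mean per age, 15 residual degrees of freedom, two-sided, Benjamini-Hochberg adjustment, threshold 0.05), in 8 comparisons of 2 ages and an F test. The steps were tested on simulated data. Figures used matplotlib 3.10.9.

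The channel genes and all lists were chosen with earlier results of these data known. Genes named with full statistics were the 8 largest called rises and falls between 1 and 4, 4 and 10, and 1 and 10 months, the 3 largest in the other comparisons, and a fixed set of channels of interest. The Kcnn3, Kcnmb2, Kcnab1, Kcnc4, Kcna6 and Kcna7 values and single probe sets were added to complete the subfamilies after their values were seen. The alternatives were the mean or the brightest of the probe sets, other filters on dim genes, a replicate block, array weights, trend and robust eBayes, quantile normalization, median centring, the arrays of 2 ages alone, a covariate for the mean of 2 Y-linked genes, a minimum change of 1.5-fold, and each array left out in turn. A pigment epithelium covariate (the mean of its markers on each array), a covariate for the spread of an array, and the use of only the 10-month arrays high in Y-linked genes, were chosen after seeing the data.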

Additional observations from a re-analysis of the deposited data

Results flagged for a closer look

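In 18 of 330 groups of 4 mice (5.45%), 300 of them of single genes, 1 mouse lay apart from the other 3 by Dixon's test, and chance alone sets apart about 1 in 20. Replicate 4 of 4 months accounted for 6 of them. It was the highest of its group for Kcna1 (8.77), Kcnab1 (10.14), Kcng4 (9.18) and the voltage-gated mean (0.16 above the 1-month mean), and the lowest for Kcnab2 (11.43) and Kcnab3 (8.56). At 4 months replicate 1 was also high for Kcna4 (7.83) and replicate 3 for Kcnj9 (9.53).

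At 2 months replicate 4 was high for Kcnab1 (10.09) and Kcng3 (6.37) and low for Kcnab3 (8.40), and replicate 1 was high for Kcnh1 (8.22). At 6 months Kcnf1 was low in replicate 4 (6.53), Kcnk12 in replicate 3 (7.81) and Kcnn4 in replicate 2 (5.50). At 1 month Kcns3 was low in replicate 1 (6.56). At 10 months replicate 2 was low for Kcnk1 (10.43) and for the mean of the calcium-activated genes (a difference of -0.012 from 1 month). That mouse was also the lowest of its age for the pigment epithelium and Muller glia markers, with means of 6.60 and 10.59.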

How the results depend on the processing

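Of 70 calls of named genes, 36 were kept when any single array was left out and 17 under every alternative that set no minimum change. Turns of sign were counted only where the main fit or the alternative called the gene, and these came only with the brightest probe set. They were those of Kcnip2 at 2, 4 and 6 months against 1 month (0.43, 0.31 and 0.38), of Kcnf1 from 4 to 10 months (-0.038) and of Kcnn2 from 1 to 4 months (0.47, adjusted p = 0.0219).

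Between 1 and 10 months 23 genes were called, against 15 with the brightest probe set, 10 with a Y-linked covariate, 13 with a pigment epithelium covariate, 13 with only the 10-month arrays high in Y-linked genes, and 2 with a minimum change of 1.5-fold. From 4 to 10 months 14 were called, against 9 with the mean of the probe sets, 3 with the brightest, 4 with the arrays of both ages alone, 1 with that covariate for pigment epithelium and 0 with the minimum change. From 6 to 10 months 6 were called, against 2 with the brightest probe set, 3 with that covariate for pigment epithelium and 0 with the minimum change. At 6 months against 1 month 13 were called, against 6 with the brightest probe set and 0 with the minimum change. At 4 months against 1 month 9 were called, against 14 with array weights, 14 with a covariate for the spread of an array and 1 with the minimum change. At 2 months against 1 month 5 were called, against 1 with the brightest probe set, 3 with no filter, 9 with array weights, 3 with the replicate block, 0 with the Y-linked covariate, 8 with the spread covariate and 0 with the minimum change. From 2 to 4 months array weights called 1. The causes were not tested, beyond the minimum change, which removes small changes by its construction.

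Leaving out 1 array gave 1 to 5 calls at 2 months, 7 to 9 at 4 months, 10 to 12 at 6 months and 15 to 21 at 10 months against 1 month, 0 from 2 to 4 and from 4 to 6 months, 4 to 7 from 6 to 10 months, 9 to 15 from 4 to 10 months, and 18 to 23 in the F test. The replicate numbers showed no consistent pairing of the mice, which does not exclude one. Same-numbered arrays correlated from -0.57 to 0.56 in their deviations from the age means, and 4 of 20 arrays correlated best with their own number. With the replicate numbers as a block 22 genes were called between 1 and 10 months and 13 between 4 and 10 months. The median change of all genes between 1 and 10 months was 0.04 in the main fit, 0.05 with median centring and 0.02 with quantile normalization, on the log2 scale.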
